A study of Mus musculus with 5 samples.

Results

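The genes of antigen presentation were examined in Kupffer cells, the macrophages that live in the sinusoids of the liver, from mice without Id3. They comprise every row of the deposited count table whose symbol begins with H2-, the prefix of the mouse major histocompatibility complex (MHC), and 14 further genes chosen by name: B2m, Cd74, Ciita, Nlrc5, Tap1, Tap2, Tapbp, Psmb8, Psmb9, Psmb10, Psme1, Psme2, Cd1d1 and Mr1. This gave 58 of the 46983 genes in the table, 44 by prefix and 14 by name. The rule uses symbols and no measured value, but the genes were chosen with earlier results of these data known. Of the 58 genes, 49 lie on chromosome 17. Poly-A RNA was sequenced from 2 samples lacking both copies of Id3 (Id3 -/-, knockout, replicates 2 and 3) and from 3 samples with 1 intact copy (Id3 +/-, heterozygous, replicates 1, 2 and 3). The heterozygous samples, which served as controls, therefore carry 1 mutant allele themselves. Id3 is a helix-loop-helix protein without a DNA-binding region that holds E-protein transcription factors away from their sites. The labels give the tissue as liver and the cell type as Kupffer cell, and name no strain, age, treatment or sorting step. The sample columns of the count table all carry the tag 3w, which the labels do not explain. Whether each sample is a different animal is not stated, and p-values here refer to the spread among these 5 samples alone. In the values below, knockout libraries are listed as replicates 2 and 3 and heterozygous libraries as replicates 1, 2 and 3.

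MHC class I molecules, a heavy chain paired with beta-2 microglobulin, display peptides that the proteasome cuts in the cytosol and that the TAP transporter carries into the endoplasmic reticulum, and CD8 T cells read them. MHC class II molecules, an alpha and a beta chain assembled on the invariant chain, display peptides made in endosomes and lysosomes, and CD4 T cells read them. Interferon gamma raises both systems, class I through the transactivator NLRC5 and class II through CIITA, and Kupffer cells in the liver are known to carry both.

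Counts assigned to genes came to 77.3M and 75.8M in knockout libraries, against 80.9M, 77.7M and 74.8M in heterozygous libraries. Id3 had 76 and 110 counts in knockout libraries, against 18813, 17479 and 18645 in heterozygous libraries, as the labels state. The 10 Kupffer cell markers measured summed to 52564 and 47693 CPM in knockout libraries, against 49020, 49037 and 49459 CPM in heterozygous libraries, and 1 of them, C6, passed the test, as lower. Clec4f, the lectin that defines these cells in the mouse, stood at 15643 and 13578 CPM (read counts scaled to library size with edgeR's TMM factors) in knockout libraries, against 16452, 16641 and 17234 CPM in heterozygous libraries. Summed markers of other cell types moved with genotype. A list of 12 hepatocyte transcripts came to 4955 and 11839 CPM in knockout libraries, against 25349, 28081 and 22565 CPM in heterozygous libraries, and 9 of the 12 passed the test as lower. The 8 monocyte markers summed to 1000 and 908 CPM in knockout libraries, against 544, 606 and 644 CPM in heterozygous libraries, and 3 of them passed as higher. T and NK cell markers (1 of 12 passing as higher) and neutrophil markers (4 of 6 tested) also summed higher in both knockout libraries than in all heterozygous ones, and sinusoidal endothelial markers (4 of 10 passing as lower) summed lower in both. Over all genes tested, 6.41% passed as higher and 10.0% as lower. In bulk RNA, fewer cells of a type and less RNA per cell cannot be told apart.

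Of the 58 genes, 41 had enough counts to be tested and 17 did not. The 17 were 12 class Ib genes (H2-Q3 and members of the H2-M group) and 5 pseudogenes, and none of them exceeded 11 counts or 0.142 CPM in a library. 6 of them (H2-M1, H2-M10.5, H2-M10.6, H2-Ea-ps, H2-Pa and H2-Pb) had no count in any library, where 3 counts correspond to 0.0371 to 0.0401 CPM. Among the 41 genes tested, 1 passed at an adjusted p under 0.05 (edgeR quasi-likelihood test, Benjamini-Hochberg adjustment over all 16436 genes tested): H2-Q10, which fell in knockout cells. This is 2.44% of the 41. The whole table had 16.4% of its tested genes past the same threshold, 6.41% as higher and 10.0% as lower. No gene passed as higher. At an unadjusted p under 0.05 there were 7 higher and 5 lower genes among the 41, while 33.5% of all genes tested passed that mark, 14.8% as higher and 18.7% as lower. DESeq2 called 6 as higher (Cd1d1, H2-DMb2, H2-K2, H2-M3, Psmb10 and Tapbp) and 4 as lower (B2m, Ciita, H2-Q10 and Nlrc5). It called 12.5% of all 16436 genes tested as higher and 15.3% as lower. For 2869 of these genes it gave no adjusted p, and they count as not called in these shares. Limma-voom called Tapbp as higher and H2-Q10 as lower, beside 7.23% and 10.3% of all genes tested in these directions. Knockout and heterozygous values did not overlap for 20 of the 41 genes, 11 with knockout higher and 9 with knockout lower. Over all genes tested, 51.5% did not overlap, 24.6% with knockout higher and 26.9% with knockout lower. The median log2 fold change was 0.10 over the 41 genes and -0.02 over all genes tested.

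These counts depended on single libraries. Without heterozygous replicate 3, 6 genes passed as higher (H2-DMa, Psmb8, Psmb10, Psme1, Tap1 and Tapbp) and H2-Q10 as lower, while of all genes then tested 6.40% passed as higher and 9.34% as lower. Without knockout replicate 3, Cd1d1 passed as higher and B2m and H2-Q10 as lower, while of all genes then tested 5.01% passed as higher and 7.87% as lower. Without heterozygous replicate 1, or without heterozygous replicate 2, none of these genes passed, and only 2.90% and 2.09% of all genes tested did.

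**Figure D1:**
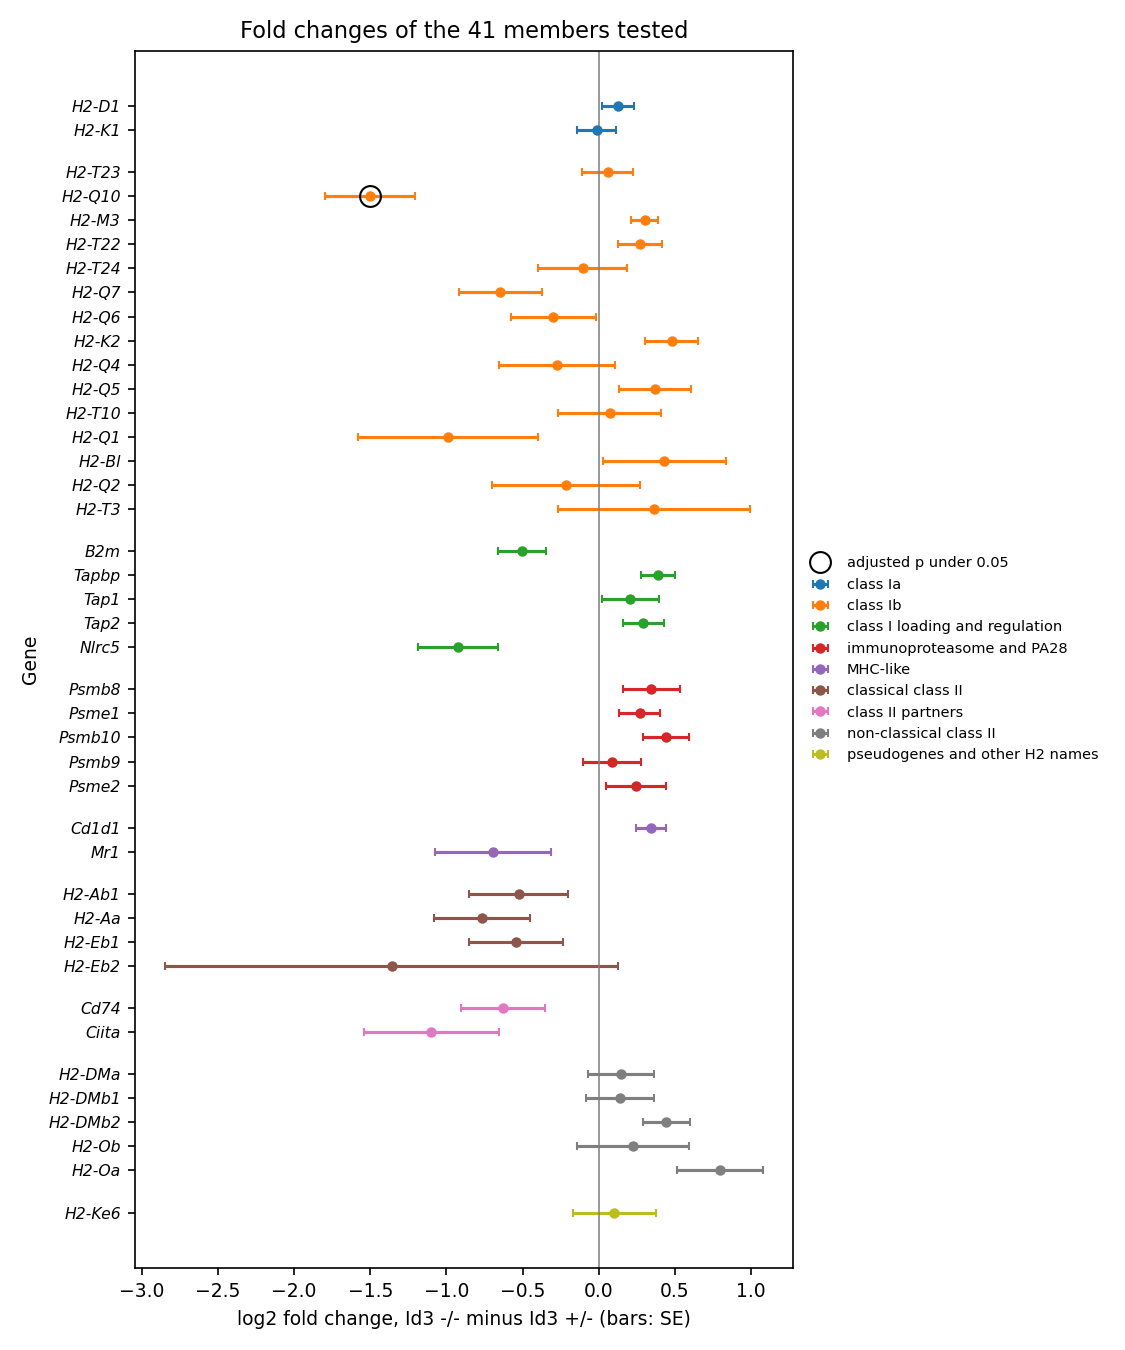
Log2 fold change of each of the 41 genes tested, knockout minus heterozygous, with its standard error (2 knockout and 3 heterozygous samples), grouped by role and coloured by group; the ring marks an adjusted p under 0.05. H2-Q10 lies farthest to the left at -1.50, the 4 classical class II genes and their 2 partners lie left of 0, and the 5 non-classical class II genes lie right of 0.

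The class I heavy chains are close copies of one another, and this limits what a read count can assign to each. Among the 16 tested class I genes with an annotated coding sequence, a 60-base coding stretch of H2-K1 recurs without change in 6 others (H2-D1, H2-Q1, H2-Q6, H2-Q7, H2-T22 and H2-T23), and 9 differ from it at 1 to 5 bases. It was picked as the stretch of H2-K1 that recurs in the most other class I genes and encodes part of the membrane-proximal alpha 3 domain. It is printed from H2-K1 (chr17:33997373-33997432, minus strand, GRCm38), H2-Q10 (chr17:35473211-35473270, plus strand), H2-M3 (chr17:37272397-37272456, plus strand) and H2-T24 (chr17:36014888-36014947, minus strand), 5′ to 3′, from the GENCODE M21 transcripts. Capitals mark bases that differ from H2-K1.
H2-K1: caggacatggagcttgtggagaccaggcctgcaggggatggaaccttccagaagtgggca
H2-Q10: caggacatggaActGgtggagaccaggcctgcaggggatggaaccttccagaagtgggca
H2-M3: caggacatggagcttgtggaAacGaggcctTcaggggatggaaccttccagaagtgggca
H2-T24: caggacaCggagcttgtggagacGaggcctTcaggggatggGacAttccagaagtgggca

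A read inside this stretch aligns equally well to all genes that share it, and HTSeq counts such a read for none of them. Over whole transcripts, the median share of 50-base windows that also occur in another gene was 15.0% for the 17 class I heavy chains tested (range 0.576% to 53.5%) and 0.514% for the 11 class II genes and partners (highest 25.9%). The share was highest for H2-T22 (53.5%) and H2-T10 (50.4%), most of it between these 2 genes, followed by H2-Q5 and H2-Q4 (36.4% each), H2-Q6 (35.0%), H2-Q7 (26.5%) and H2-Q10 (19.1%). It was 14.5% for H2-T23, 12.8% for H2-D1 and 9.63% for H2-K1, and lowest for H2-M3. Class I counts are therefore partial and the members most alike are uncertain. Multiply aligned reads took 32.3% and 34.1% of aligned reads in knockout libraries, against 38.3%, 39.3% and 41.0% in heterozygous libraries, and the part of this difference in the class I values was not tested.

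The 2 classical class I heavy chains, H2-K1 and H2-D1, which present peptides to CD8 T cells, showed no detectable difference between genotypes. H2-D1 had 4372 and 4064 CPM in knockout libraries, against 3853, 3476 and 4263 CPM in heterozygous libraries. H2-K1 had 1405 and 1632 CPM in knockout libraries, against 1583, 1333 and 1689 CPM in heterozygous libraries. The values of the genotypes overlapped for both genes, with log2 fold changes of 0.13 ± 0.10 (SE, adjusted p = 0.456, edgeR) for H2-D1 and -0.01 ± 0.13 (adjusted p = 0.954) for H2-K1. Both signs turned under other processing. H2-D1 stood at -0.14 with offsets for length and GC content, and H2-K1 at 0.05 with upper quartile scaling. With the offsets H2-K1 stood at -0.36 ± 0.10 (SE, adjusted p = 0.0779, edgeR). The sum over all 29 class I heavy chains was 6369 and 6849 CPM on library size in knockout libraries, against 6642, 5902 and 6912 CPM in heterozygous libraries. H2-D1 and H2-K1 supplied most of it in every library.

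H2-Q10 was the exception among the heavy chains. It encodes a class Ib molecule that lacks a membrane anchor and is secreted, in the mouse mainly by hepatocytes. H2-Q10 (chr17:35470089-35474563 in GENCODE M21) had 88.5 and 183 CPM in knockout libraries, against 402, 392 and 361 CPM in heterozygous libraries. Every knockout value lay below every heterozygous one, and the log2 fold change was -1.50 ± 0.30 (SE, adjusted p = 0.0245, edgeR, 2 against 3 samples). The fold change was -1.07 without knockout replicate 2 and -2.11 without knockout replicate 3, and the adjusted p rose to 0.0707 without heterozygous replicate 1 and 0.0801 without heterozygous replicate 2. Set against the hepatocyte list, H2-Q10 had 17.4 and 15.8 reads per 1000 reads of the hepatocyte list in knockout libraries, against 16.1, 14.2 and 15.6 in heterozygous libraries, and these ranges overlap. The listed genes did not move by equal amounts, from a log2 fold change of -2.96 for Fga to -0.08 for Apoa2, and the part of hepatocyte transcripts in the H2-Q10 values was not tested. Relative to H2-K1 it stood at 0.0630 and 0.112 reads per H2-K1 read in knockout libraries, against 0.254, 0.294 and 0.214 in heterozygous libraries.

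**Figure D2:**
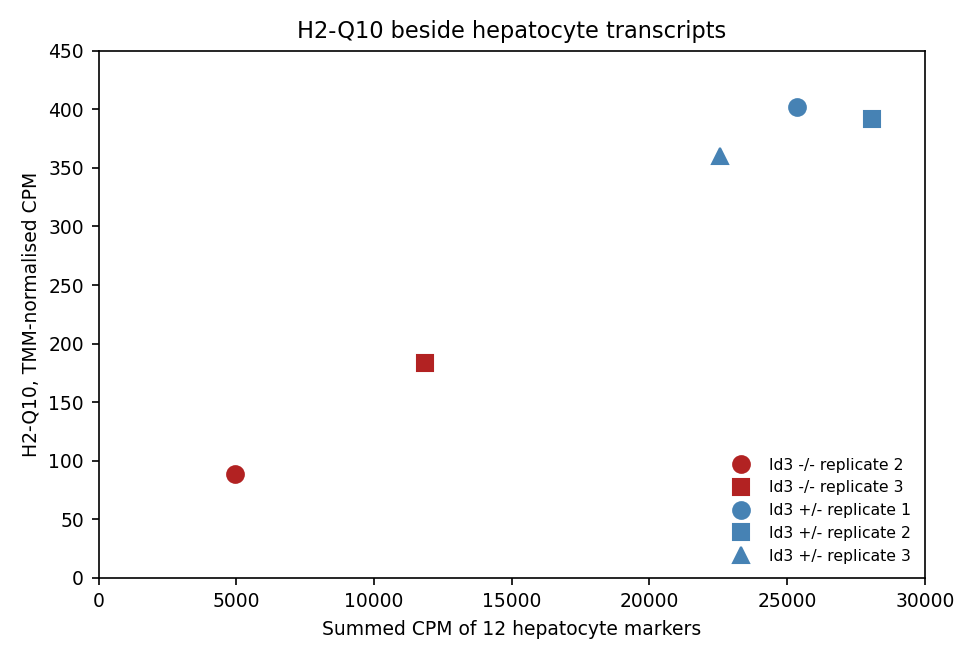
TMM-normalised CPM of H2-Q10 (vertical axis) against the summed CPM of 12 hepatocyte markers (horizontal axis), 1 point per library, Id3 -/- in red and Id3 +/- in blue. The knockout libraries lie at 88.5 and 183 CPM of H2-Q10 and at 4955 and 11839 CPM of the markers, below and left of all heterozygous libraries (361 to 402 CPM of H2-Q10, 22565 to 28081 CPM of the markers).

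The other 14 class Ib genes did not pass the test (edgeR), 2 of them with an unadjusted p under 0.05, H2-M3 and the pseudogene H2-K2. H2-T23, the Qa-1 heavy chain that presents signal peptides of other class I molecules, had 424 and 553 CPM in knockout libraries, against 461, 402 and 546 CPM in heterozygous libraries, with overlapping values. H2-M3, which presents formylated bacterial peptides and shares only 0.576% of its windows with another gene, had 136 and 143 CPM in knockout libraries, against 116, 107 and 117 CPM in heterozygous libraries. Both knockout values of H2-M3 lay above all heterozygous ones. Its log2 fold change was 0.30 ± 0.09, with an adjusted p of 0.0684 (edgeR) that missed the threshold. With offsets for length and GC content it was 0.08 ± 0.07 (adjusted p = 0.549, edgeR). H2-T22, a ligand of gamma delta T cells, had 37.1 and 45.6 CPM in knockout libraries, against 37.1, 30.5 and 35.4 CPM in heterozygous libraries. H2-T24 spread more between the knockout libraries than between genotypes, with 15.9 and 32.9 CPM in knockout libraries, against 27.1, 27.3 and 24.4 CPM in heterozygous libraries. H2-Q7, a Qa-2 heavy chain, had 13.4 and 13.8 CPM in knockout libraries, against 25.8, 14.0 and 24.1 CPM in heterozygous libraries, with an adjusted p of 0.158. The remaining 9 tested class Ib genes averaged at most 17.0 CPM in either genotype. Among all 15 tested class Ib genes, 8 log2 fold changes lay above 0 and 7 below, with a median of 0.06.

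The 5 partners of the heavy chains gave values on both sides of 0, and none passed the test (edgeR), although B2m, Tapbp and Nlrc5 had an unadjusted p under 0.05. B2m, the light chain of every classical class I molecule, had 1603 and 2247 CPM in knockout libraries, against 2910, 2486 and 2791 CPM in heterozygous libraries. Both knockout values lay below all heterozygous ones, with a log2 fold change of -0.50 ± 0.16 and an adjusted p of 0.0775 (edgeR). Tapbp, tapasin, which holds class I molecules at the TAP transporter, had 1001 and 995 CPM in knockout libraries, against 749, 682 and 856 CPM in heterozygous libraries, a log2 fold change of 0.39 ± 0.11 with an adjusted p of 0.0635. Its values did not overlap either, but in the other direction. Over the 14 alternative fits the log2 fold change of Tapbp ran from 0.14 to 0.48. Tap1 had 164 and 175 CPM in knockout libraries, against 132, 123 and 185 CPM in heterozygous libraries. Tap2, the other subunit of the transporter, had 160 and 145 CPM in knockout libraries, against 122, 108 and 143 CPM in heterozygous libraries. Values of Tap1 overlapped, with heterozygous replicate 3 the highest, and those of Tap2 came within a few CPM of each other. Nlrc5, the class I transactivator, had 20.4 and 14.7 CPM in knockout libraries, against 27.0, 29.1 and 43.8 CPM in heterozygous libraries. Its values did not overlap, and its log2 fold change of -0.93 ± 0.26 had an adjusted p of 0.0618.

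Ratios within a library set the light chain against the heavy chains without any scaling between libraries. They carry no offsets for length and GC content, and neither do the ratios given further below. B2m has a transcript of 860 bases with a GC content of 0.41. That of H2-D1 has 2102 bases and 0.56, and that of H2-K1 has 1619 bases and 0.56. The part of this in the ratios was not tested. B2m stood at 0.896 and 1.35 reads per kb for each read per kb of H2-D1 in knockout libraries, against 1.85, 1.75 and 1.60 in heterozygous libraries. Against H2-K1 the ratio was 2.15 and 2.59 in knockout libraries, against 3.46, 3.51 and 3.11 in heterozygous libraries. Both ratios were lower in each knockout library than in any heterozygous one, while H2-D1 over H2-K1 overlapped, at 2.40 and 1.92 in knockout libraries, against 1.88, 2.01 and 1.94 in heterozygous libraries. The ratio of reads shows unequal change between the genes and does not say which of them changed. No test was run on ratios and sums, for which the smallest p that an exact permutation of 2 against 3 libraries allows is 0.1. B2m is also transcribed in hepatocytes, whose transcripts were lower in knockout libraries as given above, and their part in its values was not tested.

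The interferon-inducible proteasome genes averaged higher in knockout libraries without passing the test, and with offsets for transcript length and GC content Psmb9 (-0.29), Psme1 (-0.16), Psme2 (-0.16) and, of the transporter, Tap1 (-0.03) turned to log2 fold changes below 0. Psmb8, Psmb9 and Psmb10 encode the catalytic subunits beta5i, beta1i and beta2i, which replace Psmb5, Psmb6 and Psmb7 in the immunoproteasome. Psmb8 had 326 and 352 CPM in knockout libraries, against 237, 225 and 340 CPM in heterozygous libraries. Psmb10 had 219 and 235 CPM in knockout libraries, against 147, 154 and 201 CPM in heterozygous libraries, the only one of the 3 without overlap. Psmb9 had 145 and 166 CPM in knockout libraries, against 139, 117 and 183 CPM in heterozygous libraries. In each of them heterozygous replicate 3 was the highest of the heterozygous libraries, above both knockout libraries for Psmb9. The PA28 activator genes behaved alike: Psme1 had 279 and 306 CPM in knockout libraries, against 225, 219 and 284 CPM in heterozygous libraries, and Psme2 had 97.8 and 119 CPM in knockout libraries, against 75.6, 84.4 and 115 CPM in heterozygous libraries. The log2 fold changes of the 5 genes ran from 0.09 for Psmb9 to 0.44 ± 0.15 for Psmb10, whose adjusted p of 0.0961 was the smallest of the 5 (edgeR). At an unadjusted p under 0.05 stood 1 of the 5. Without heterozygous replicate 3, Psmb8 stood at 0.55, Psmb10 at 0.59, Psme1 at 0.40, Tap1 at 0.41 and Tapbp at 0.48, and these 5 passed the test. These are the high ends of wide ranges. Over the 14 alternative fits Psmb8 ran from 0.018 to 0.55 and Psmb10 from 0.028 to 0.59. Psme2 shares 28.3% of its 50-base windows with Psme2b, and Psmb9 overlaps Tap1 head to head over part of its transcripts, so that their reads cannot be told apart there without strand.

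**Figure D3:**
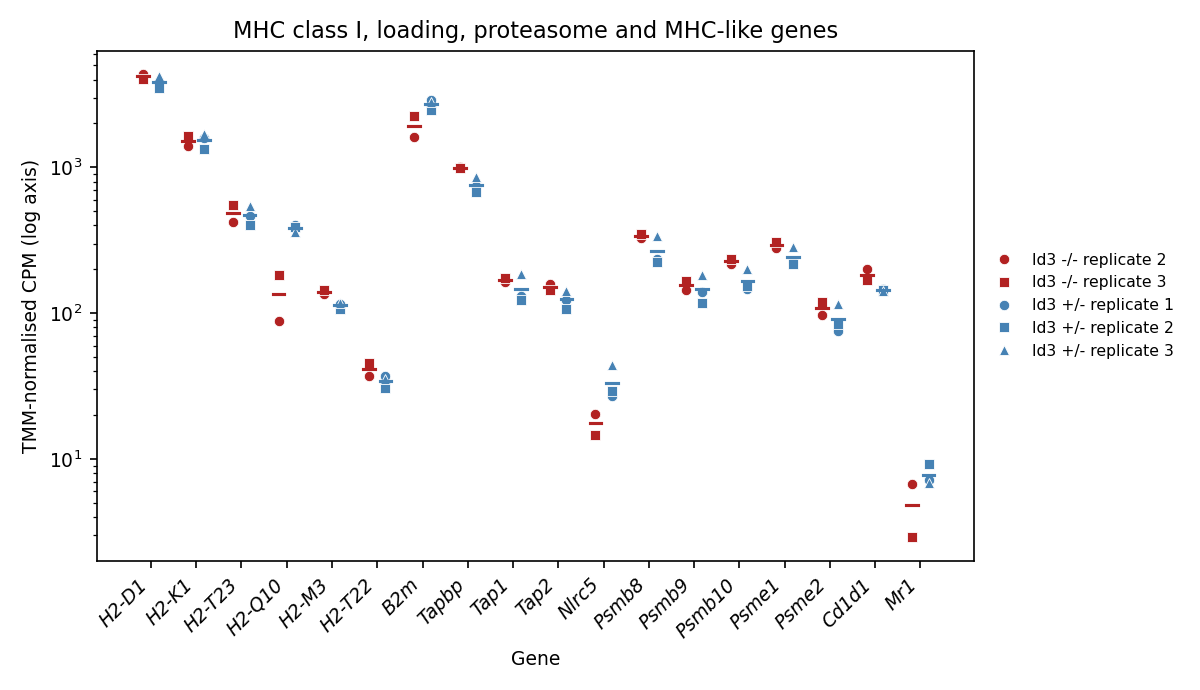
TMM-normalised CPM on a log axis of 18 class I, loading, proteasome and MHC-like genes, 1 point per library and a bar at each mean, Id3 -/- in red left of Id3 +/- in blue. H2-Q10, B2m and Nlrc5 lie lower in both knockout libraries, Tapbp, H2-M3, Psmb10, Tap2 and Cd1d1 lie higher in both, and H2-K1, H2-D1 and H2-T23 overlap.

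Each immunoproteasome subunit was set against the constitutive subunit that it replaces. Psmb8 over Psmb5, in reads per kb, stood at 8.66 and 7.79 in knockout libraries, against 4.73, 4.66 and 5.47 in heterozygous libraries. Psmb10 over Psmb7 stood at 4.47 and 4.02 in knockout libraries, against 2.84, 2.84 and 3.13 in heterozygous libraries. Psmb9 over Psmb6 went the other way, with 0.428 and 0.492 in knockout libraries, against 0.624, 0.517 and 0.655 in heterozygous libraries. None of these 3 ratios overlapped between genotypes, and their difference in direction was not tested. Of single genes, 51.5% of all tested did not overlap either. Psmb6, the constitutive beta1 subunit, itself rose in knockout cells, with 200 and 199 CPM, against 132, 134 and 165 CPM in heterozygous cells (log2 fold change 0.48 ± 0.12, adjusted p = 0.0458, edgeR). That call was lost on leaving out any library other than heterozygous replicate 3, with an adjusted p of 0.0992 to 0.142, and with offsets for length and GC content the log2 fold change was -0.047 (adjusted p = 0.737).

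Of the 16 constitutive proteasome genes listed, Psmb6 passed as higher and Psma4, an alpha ring subunit, as lower, with 42.7 and 49.9 CPM in knockout libraries, against 61.0, 62.9 and 67.4 CPM in heterozygous libraries (log2 fold change -0.46 ± 0.11, adjusted p = 0.0423). The Psma4 call was lost without any library but knockout replicate 3, with an adjusted p of 0.0745 to 0.166. The most abundant gene of this list that did not pass, Psma6, had 287 and 290 CPM in knockout libraries, against 286, 284 and 319 CPM in heterozygous libraries. These calls made up 12.5% of the 16 genes, beside 16.4% of all genes tested. The median log2 fold change of the 16 genes was 0.10. A list of 11 genes for class I transcription and peptide supply held 5 that fell in knockout cells and none that rose, or 45.5% of the list, beside 10.0% of all genes tested that were lower. Pdia3, a disulfide isomerase of the peptide loading complex, had 445 and 486 CPM in knockout libraries, against 824, 933 and 831 CPM in heterozygous libraries, a log2 fold change of -0.89 ± 0.10. Canx, calnexin, the chaperone of new heavy chains, had 105 and 136 CPM in knockout libraries, against 269, 345 and 265 CPM in heterozygous libraries. Erap1, which trims peptides inside the endoplasmic reticulum, had 13.6 and 11 CPM in knockout libraries, against 35.2, 40.9 and 29.8 CPM in heterozygous libraries. In all 3 genes the groups lay far apart, with adjusted p from 0.00781 to 0.0115 (edgeR). Calr also fell and is named after its values were seen. Canx, Calr and Pdia3 serve many secreted proteins and not class I alone, and the part of the hepatocyte transcripts in their values was not tested. Irf1, an interferon-induced activator of class I genes and the most abundant of the 6 that did not pass, had 375 and 359 CPM in knockout libraries, against 237, 238 and 343 CPM in heterozygous libraries.

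**Figure D4:**
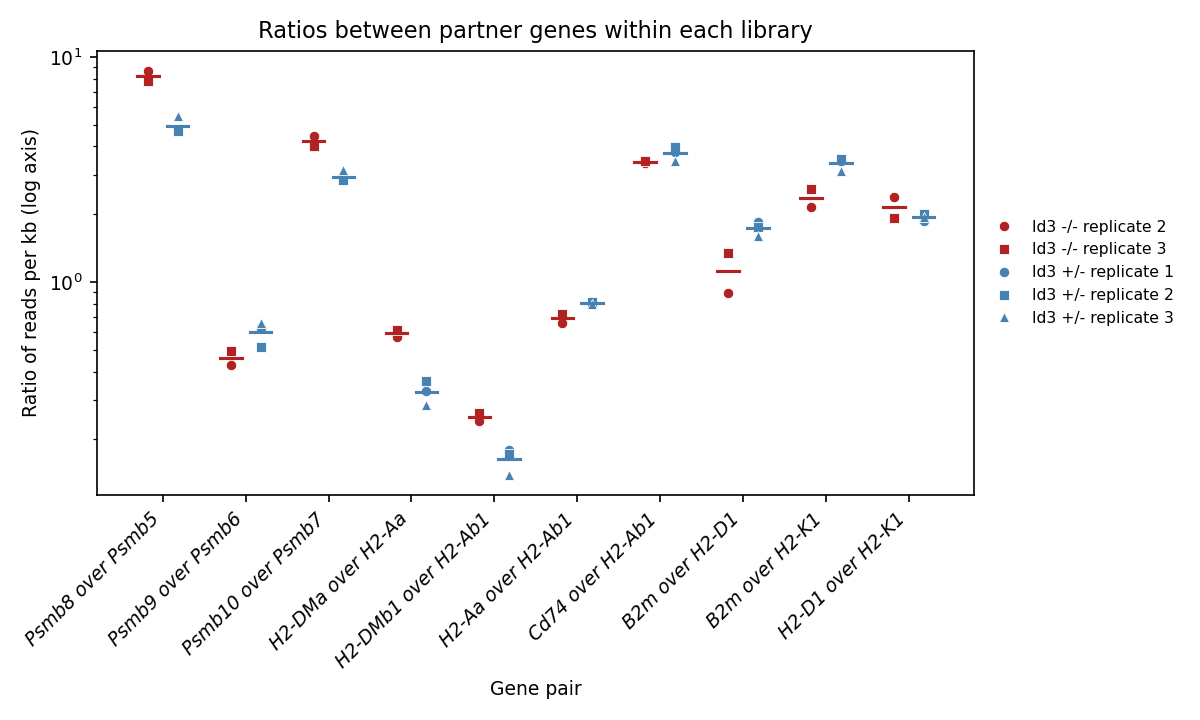
Ratio of reads per kb between partner genes within each library on a log axis, 1 point per library and a bar at each mean, Id3 -/- in red left of Id3 +/- in blue. Psmb8 over Psmb5, Psmb10 over Psmb7, H2-DMa over H2-Aa and H2-DMb1 over H2-Ab1 lie higher in both knockout libraries, Psmb9 over Psmb6, H2-Aa over H2-Ab1 and the B2m ratios lie lower, and H2-D1 over H2-K1 overlaps.

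The MHC-like genes outside the complex went separate ways and did not pass. Cd1d1, which presents lipids to NKT cells and lies on chromosome 3, had 200 and 169 CPM in knockout libraries, against 147, 145 and 143 CPM in heterozygous libraries. The groups did not overlap, with a log2 fold change of 0.34 ± 0.10 and an adjusted p of 0.0662 (edgeR), and 19.1% of its windows recur in Cd1d2. Mr1, which presents microbial vitamin B metabolites to MAIT cells, had 6.71 and 2.91 CPM in knockout libraries, against 7.19, 9.29 and 6.90 CPM in heterozygous libraries, with an adjusted p of 0.260. Of 9 further class I like genes, 8 were tested, 1 rose and 1 fell, or 25.0% of those tested beside 16.4% of all genes tested. Fcgrt, the neonatal Fc receptor that recycles IgG and albumin, rose, with 1789 and 1533 CPM in knockout libraries, against 1106, 1090 and 1226 CPM in heterozygous libraries (log2 fold change 0.54 ± 0.10, adjusted p = 0.0226). Azgp1, a secreted class I like protein made in the liver by hepatocytes, fell, with 29.0 and 68.8 CPM in knockout libraries, against 143, 173 and 151 CPM in heterozygous libraries (log2 fold change -1.67 ± 0.35, adjusted p = 0.0296). The Azgp1 values, like those of H2-Q10, were lowest in the knockout library with the fewest hepatocyte transcripts. Fcgrt missed the threshold without knockout replicate 2 (adjusted p = 0.0746) or heterozygous replicates 1 or 2 (0.0938 and 0.0946), and Azgp1 without any 1 heterozygous library (0.0704, 0.0911 and 0.0578). Hfe, the iron regulator and the most abundant of the list that did not pass, had 834 and 705 CPM in knockout libraries, against 664, 694 and 669 CPM in heterozygous libraries.

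On the class II side, the promoters carry a shared control module, in which an X box bound by RFX and a Y box bound by NF-Y recruit CIITA. Stretches of 54 bases that hold the Y box letters GATTGG are shown 5′ to 3′ for 5 class II genes, from RefSeq promoters (GRCm38.p6). They are H2-Aa (chr17:34287861-34287914, minus strand), H2-Eb1 (chr17:34305765-34305818), H2-Eb2 (chr17:34325532-34325585), H2-DMb2 (chr17:34145116-34145169) and H2-Ob (chr17:34238805-34238858), the last 4 on the plus strand. Capitals mark GATTGG and, where present, AACNNATGATG, the letters at the X box that H2-Eb1, H2-DMb2 and H2-Ob share, with N where these 3 differ.
H2-Aa: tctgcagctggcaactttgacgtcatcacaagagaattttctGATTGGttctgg
H2-Eb1: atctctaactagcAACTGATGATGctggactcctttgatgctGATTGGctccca
H2-Eb2: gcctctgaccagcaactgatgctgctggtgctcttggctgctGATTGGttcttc
H2-DMb2: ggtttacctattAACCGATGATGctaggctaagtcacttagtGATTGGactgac
H2-Ob: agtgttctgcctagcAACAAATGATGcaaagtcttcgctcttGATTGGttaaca

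The Y letters began 49 to 101 bases before the RefSeq gene start in these 5 genes. In GENCODE M21 the H2-DMb2 gene begins farther upstream, at position 34143307, so that its printed stretch lies inside that gene model and outside its exons. In the 250 bases upstream of the start and on either strand, GATTGG occurred in 7 of the 8 class II chain genes with a promoter sequence, the exception being H2-DMa, and in 15.1% of 27025 promoters. The same letters occurred on either strand in 15 of 22 class I heavy chain genes with a promoter sequence, so they are not particular to class II, and in the forward direction in 7 of the 8 class II and 1 of the 22 class I genes. AACNNATGATG occurred in 4 of the 8, the 3 it was read from and H2-DMb1, and in 0.122% of all promoters, and both together in 0.0296%. The letters were chosen after these sequences had been seen, and a match describes the sequence only. H2-Eb1 and H2-Ob, printed above with both boxes, had log2 fold changes of -0.55 ± 0.31 and 0.22 ± 0.37. Neither passed the test (edgeR), so neither sign is settled.

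The classical class II chains averaged lower in knockout cells, but the spread of the heterozygous samples was wide and none passed the test. H2-Aa, the I-A alpha chain, had 327 and 298 CPM in knockout libraries, against 426, 382 and 784 CPM in heterozygous libraries. H2-Ab1, the I-A beta chain, had 536 and 443 CPM in knockout libraries, against 560, 504 and 1054 CPM in heterozygous libraries. H2-Eb1, the I-E beta chain, had 204 and 189 CPM in knockout libraries, against 231, 207 and 422 CPM in heterozygous libraries. Heterozygous replicate 3 stood far above the other 4 libraries in each of the 3 genes. With it left out, the genotypes still did not overlap for H2-Aa or H2-Eb1 and overlapped for H2-Ab1. The log2 fold changes were -0.76 ± 0.31 for H2-Aa (adjusted p = 0.149, edgeR), -0.53 ± 0.33 for H2-Ab1 (0.317) and -0.55 ± 0.31 for H2-Eb1 (0.273). When heterozygous replicate 3 was left out they were -0.37 ± 0.10 for H2-Aa (adjusted p = 0.0703), -0.12 for H2-Ab1 and -0.16 for H2-Eb1. H2-Eb2, a second E beta gene, was close to absent, with 5 and 7 counts in knockout libraries, against 23, 26 and 0 counts in heterozygous libraries, and the standard error of its log2 fold change (-1.36 ± 1.49) exceeded the change itself. The E alpha gene, annotated as the pseudogene H2-Ea-ps, had no count in any library, so no transcript for the partner of the I-E beta chain was counted.

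The invariant chain and the transactivator were also highest in heterozygous replicate 3. Cd74, the invariant chain that blocks the groove and guides class II molecules to endosomes, had 2112 and 1783 CPM in knockout libraries, against 2463, 2324 and 4240 CPM in heterozygous libraries. Ciita, whose product switches on the class II genes, had 8.99 and 7.26 CPM in knockout libraries, against 13.3, 10.5 and 28.5 CPM in heterozygous libraries. Both knockout values lay below all heterozygous ones in both genes, yet the log2 fold changes of -0.63 ± 0.27 for Cd74 (adjusted p = 0.171) and -1.10 ± 0.44 for Ciita (adjusted p = 0.142) did not pass. Without heterozygous replicate 3 they were -0.30 and -0.55. With offsets for length and GC content, Cd74 stood at -1.01 and passed (adjusted p = 0.0466, edgeR). The sum of the 4 classical chains and Cd74 was 3102 and 2772 CPM on library size in knockout libraries, against 3736, 3470 and 6328 CPM in heterozygous libraries. Each knockout sum lay below each heterozygous sum, that of heterozygous replicate 3 standing far above the rest. At an unadjusted p under 0.05 stood H2-Aa and Ciita among these 6 genes.

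The high library was high for much of the presentation machinery, not for class II alone. In heterozygous replicate 3, H2-Aa, H2-Ab1 and H2-Eb1 stood at 1.94, 1.98 and 1.92 times the mean of heterozygous replicates 1 and 2, Cd74 at 1.77 times and Ciita at 2.39 times. Nlrc5 stood at 1.56 times, Psmb8 at 1.47 times and Tap1 at 1.46 times that mean, while B2m stood at 1.03 times and H2-D1 at 1.16 times. It was the highest of all 5 libraries for 14 of the 41 genes tested, beside 2401 of 16436 genes overall. The same library was highest for 8 of the 16 constitutive proteasome genes listed, so this was not particular to the presentation genes. Other cells that carry class II are B cells and dendritic cells. The 11 B cell markers summed to 749 and 476 CPM in knockout libraries, against 493, 511 and 353 CPM in heterozygous libraries, lowest in heterozygous replicate 3. The 11 dendritic cell markers summed to 127 and 113 CPM in knockout libraries, against 99.1, 80.3 and 98.0 CPM in heterozygous libraries. Much of this sum was Batf3, the only marker of the list to pass, as higher (adjusted p = 0.0195, edgeR). It had 57.7 and 59.5 CPM in knockout libraries, against 32.2, 30.5 and 39.5 CPM in heterozygous libraries. Of the 11 log2 fold changes, 6 lay above 0 and 5 below. No marker of either list was at 0 in all libraries, and in heterozygous replicate 3 Cd209a and Siglech were at 0. Single dendritic cell markers varied more than the sum: Itgae had 5.28 and 1.93 CPM in knockout libraries, against 0.694, 0.697 and 3.09 CPM in heterozygous libraries, and Flt3 was highest in heterozygous replicate 3 (3.51 CPM). The part of these cells in the class II values was not tested.

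**Figure D5:**
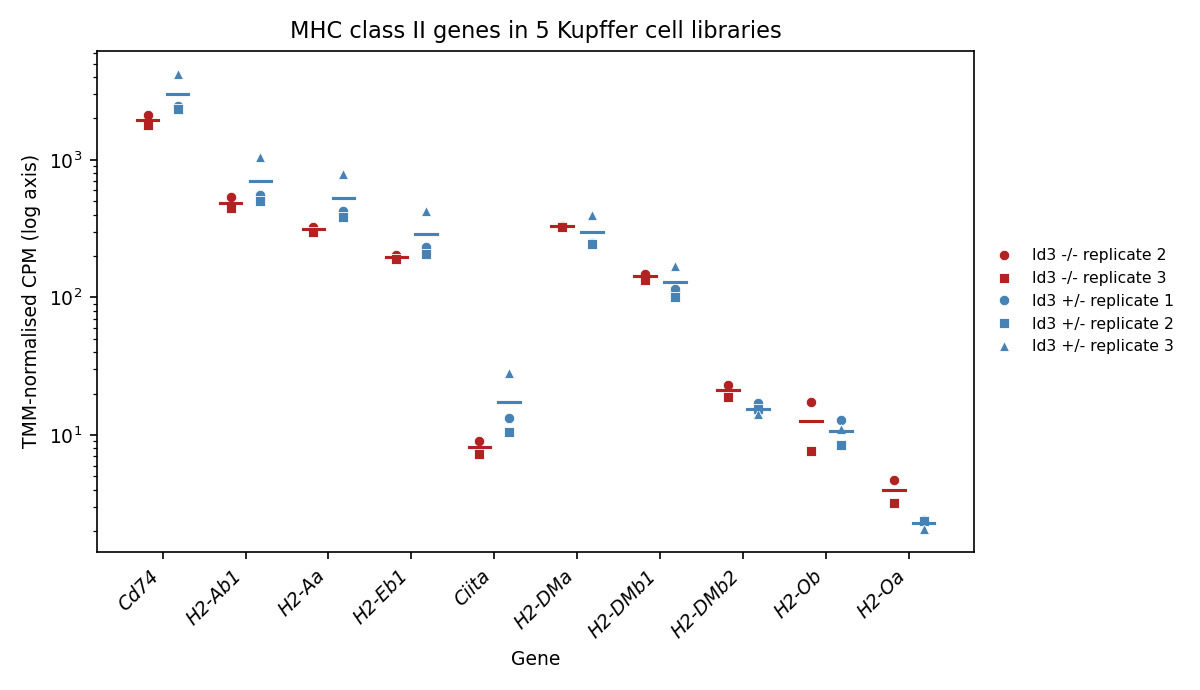
TMM-normalised CPM on a log axis of 10 class II genes, 1 point per library and a bar at each mean, Id3 -/- in red left of Id3 +/- in blue. Heterozygous replicate 3 (blue triangle) stands above all other libraries for Cd74, H2-Ab1, H2-Aa, H2-Eb1, Ciita, H2-DMa and H2-DMb1 and not for H2-DMb2, H2-Ob or H2-Oa.

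The non-classical class II genes, which edit the peptide in the groove, did not pass the test, and their difference from the classical chains was not tested. H2-DMa, the alpha chain of the peptide exchange factor DM, had 331 and 325 CPM in knockout libraries, against 249, 246 and 395 CPM in heterozygous libraries. H2-DMb1, a DM beta chain, had 149 and 135 CPM in knockout libraries, against 116, 101 and 170 CPM in heterozygous libraries. In both genes the knockout values lay above heterozygous replicates 1 and 2 and below replicate 3. H2-DMb2, the second DM beta gene, had 23.3 and 19.0 CPM in knockout libraries, against 17.0, 15.4 and 14.2 CPM in heterozygous libraries, a log2 fold change of 0.44 ± 0.16 with an adjusted p of 0.106. H2-Oa, part of the DM inhibitor DO that is best known from B cells, had 4.73 and 3.20 CPM in knockout libraries, against 2.41, 2.38 and 2.07 CPM in heterozygous libraries, a log2 fold change of 0.79 ± 0.28 with an adjusted p of 0.107. H2-Ob, its beta chain, had 17.5 and 7.65 CPM in knockout libraries, against 12.9, 8.46 and 11 CPM in heterozygous libraries. H2-DMb2 and H2-Oa did not overlap between genotypes, whereas H2-Ob spread as widely within the knockout pair as across all libraries. Knockout replicate 2, which was highest for H2-Ob and H2-Oa, was also highest for the B cell sum, whose part in these 2 genes was not tested. The 5 log2 fold changes all lay above 0, with a median of 0.22, against a median of -0.65 for the 4 classical chains. That second median includes H2-Eb2, which had few counts. Without heterozygous replicate 3 the other classical chains stood at -0.37 (H2-Aa), -0.12 (H2-Ab1) and -0.16 (H2-Eb1). H2-DMa (-0.11) and H2-DMb1 (-0.19) turned to below 0 with offsets for length and GC content, and H2-Ob (-0.50) without knockout replicate 2. H2-DMb1 and H2-DMb2 share 22.7% and 25.9% of their windows, largely with each other, so counts between them are uncertain, and H2-DMa shares 8.43% with its neighbour Brd2.

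Within each library, the peptide editor was set against the chains that it serves. H2-DMa over H2-Aa, in reads per kb, stood at 0.570 and 0.615 in knockout libraries, against 0.328, 0.363 and 0.284 in heterozygous libraries. H2-DMb1 over H2-Ab1 stood at 0.240 and 0.263 in knockout libraries, against 0.179, 0.173 and 0.139 in heterozygous libraries. Both ratios were higher in each knockout library than in any heterozygous one. The chains of I-A did not keep a fixed ratio either: H2-Aa over H2-Ab1 was 0.656 and 0.722 in knockout libraries, against 0.818, 0.814 and 0.800 in heterozygous libraries. By contrast, H2-Eb1 over H2-Ab1 overlapped, with 0.277 and 0.309 in knockout libraries, against 0.300, 0.299 and 0.291 in heterozygous libraries, although all 3 chains were highest in heterozygous replicate 3.

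Of the 15 genes for class II transcription and peptide supply, 6.67% passed, beside 16.4% of all genes tested: 1 fell and none rose. It was March1, a ubiquitin ligase that removes class II molecules from the cell surface, with 7.57 and 9.96 CPM in knockout libraries, against 27.7, 27.8 and 22.5 CPM in heterozygous libraries, a log2 fold change of -1.57 ± 0.19 and an adjusted p of 0.00948 (edgeR). The values lay far apart, and the call held without each library in turn. Ctsb, cathepsin B and the most abundant of the 14 others, had 19368 and 15462 CPM in knockout libraries, against 16588, 16539 and 17764 CPM in heterozygous libraries, with overlapping values. The median of the list was 0.12. Of the 8 genes for the interferon gamma receptor and its signalling, 2 rose and 3 fell, or 62.5% of the list beside 16.4% of all genes tested. Ifngr2, a receptor chain, rose, with 265 and 232 CPM in knockout libraries, against 189, 161 and 175 CPM in heterozygous libraries. Jak1, the kinase on the other receptor chain, fell, with 68.1 and 57.9 CPM in knockout libraries, against 144, 156 and 106 CPM in heterozygous libraries. In neither gene did the genotypes overlap, and the log2 fold changes were 0.51 ± 0.11 for Ifngr2 (adjusted p = 0.0308, edgeR) and -1.10 ± 0.19 for Jak1 (adjusted p = 0.0179). The calls of Ifngr2 and Jak1 were each lost on leaving out any of 4 libraries, with adjusted p between 0.0528 and 0.122. Irf8 rose and Jak2 fell, both named after their values were seen. Ifngr1, the most abundant of the list, had 865 and 846 CPM in knockout libraries, against 953, 940 and 810 CPM in heterozygous libraries and did not pass. Irf1 stands in both this list and the class I list.

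Levels of different genes can be compared only per transcript length. On the scale of CPM per kb, B2m, H2-D1 and Cd74 led the 58 genes in both genotypes. B2m averaged 2238 CPM per kb in knockout and 3174 in heterozygous libraries, and H2-D1 averaged 2007 in knockout and 1838 in heterozygous libraries. Cd74 averaged 1381 CPM per kb in knockout and 2134 in heterozygous libraries, and H2-K1 averaged 938 in knockout and 948 in heterozygous libraries. Cd74 ranged from 1264 to 1498 CPM per kb in knockout libraries and from 1648 to 3007 in heterozygous libraries, so its place beside H2-D1 differed between heterozygous libraries. H2-Ke6, which bears the prefix by its position and encodes a dehydrogenase with no part in antigen presentation, had 2.73 and 3.14 CPM in knockout libraries, against 2.41, 2.56 and 3.24 CPM in heterozygous libraries, and 70.5% of its windows recur in an overlapping read-through model.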

How the data were processed

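RNA was measured in 5 Kupffer cell samples, 2 Id3 -/- and 3 Id3 +/-. The authors deposited whole-number counts of reads for each gene and sample. The submitters' processing notes name HTSeq 0.5.4, DESeq 1.18.0, R 3.1.2 and the build mm9. Not given in the sources used here were the aligner, the annotation release and whether strand was used. The 5 summary entries of each column (unaligned, multiply aligned, ambiguous and the like), 40.0% to 48.6% of everything counted, stayed out of library sizes and tests. Gene counts came to 74.8M to 80.9M a library.

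The knockout was set against the heterozygous group with edgeR 4.0.16 under R 4.3.3 (TMM scaling after filterByExpr, quasi-likelihood F test, no covariate, Benjamini-Hochberg over 16436 genes, threshold 0.05, no minimum fold). Fold changes run knockout over heterozygous. The standard error is the log2 fold change over the square root of F. Levels are TMM-normalised CPM; sums use CPM on library size. Limma 3.58.1 (voom) and DESeq2 1.42.0, other scalings, no filter or one of 1 CPM in 2 samples, the replicate number as a block, spline offsets for length and GC content, and leaving out each library were the alternatives. Scripts were tested on simulated data.

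Lengths (longest coding transcript), coordinates and the transcripts searched for shared windows come from GENCODE M21 (GRCm38), matched by gene ID for 46488 of 46983 genes and all 58 members; promoters come from RefSeq (GRCm38.p6). Counting may have used another annotation, so shared windows describe M21 only. No batch is labelled. The members, pathway lists and marker lists were chosen with earlier results of these data known. Named were the genes that passed, up to 5 others per group by level, and per pathway list up to 3 passing genes and the most abundant other, apart from 1 gene that is not reported here. Shared motifs were chosen after the sequences were seen.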

Additional observations from a re-analysis of the deposited data

How the results depend on the processing

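The genes called over the whole table numbered 4581 with DESeq2, 1616 with offsets for length and GC content, 1 with a replicate block and 335 to 2540 on leaving out single libraries, beside 2698. Antigen presentation genes called higher numbered 6 with DESeq2, 1 with limma-voom, 3 with upper quartile scaling, 1 with library size scaling, 4 with the filter of 1 CPM in 2 samples and 0 to 6 on leaving out single libraries. Those called lower numbered 4 with DESeq2, 2 with library size scaling, 2 with the filter of 1 CPM, 2 with offsets, 0 with a replicate block and 0 to 2 on leaving out single libraries. The cause of these differences was not tested.

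Of 668 alternative values for 48 named genes, 565 kept their direction and their side of the threshold, 44 kept the direction and lost the call, 30 gained one and 29 changed sign. With offsets, the log2 fold change was -0.14 for H2-D1, -0.26 for H2-T23, -0.11 for H2-DMa, -0.19 for H2-DMb1, -0.034 for Tap1, -0.16 for Psme1, -0.29 for Psmb9, -0.16 for Psme2, -0.39 for H2-Ke6 and -0.047 for Psmb6. H2-K1 stood at 0.0074 with DESeq2 and with RLE scaling, 0.051 with upper quartile scaling and 0.012 with the 1 CPM filter, and Psma6 at 0.029 with upper quartile scaling. On leaving out single libraries, H2-K1 ran from -0.12 to 0.087, H2-T23 from -0.14 to 0.23, H2-T24 from -0.71 to 0.32, H2-DMb1 from -0.0047 to 0.39, H2-Ob from -0.50 to 0.71, Psmb9 from -0.047 to 0.28, Ctsb from -0.14 to 0.20 and Psma6 from -0.064 to 0.020.

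With the replicate number as a block, H2-K1 stood at 0.014, H2-Eb2 at 0.17 and H2-Q10 at -1.56 with an adjusted p of 0.139. The labels do not say that a number pairs samples, so the numbers are treated as names only. With 2 shared numbers the deviations of same-numbered samples correlated at -0.03 and -0.06. The deviations of 2 knockout libraries from their mean mirror each other, so these values cannot show whether numbers pair samples. The median share of windows in common was 22.3% at 36 bases and 5.09% at 100 bases for class I, and 0.877% at 36 bases and 0% at 100 bases for class II. Genes under about 1 CPM, such as H2-Eb2 and H2-T3, rest on too few counts for a direction.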

Other observations

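A few listed genes are given here for their values, chosen after these were seen. Cd1d2, the copy of Cd1d1 that lies beside it, stood at 9.15 CPM in knockout replicate 2 and 0.026 CPM in knockout replicate 3, against 0.195, 0.038 and 0.096 CPM in heterozygous libraries, while Cd1d1 differed far less between these libraries. Calr, calreticulin, the soluble chaperone of the class I loading complex, fell, with 832 and 959 CPM in knockout libraries, against 1232, 1233 and 1366 CPM in heterozygous libraries (adjusted p = 0.0244, edgeR). Irf8, a factor of macrophage and dendritic cell development, rose, with 639 and 494 CPM in knockout libraries, against 386, 381 and 419 CPM in heterozygous libraries (adjusted p = 0.0405). Jak2, the kinase bound to Ifngr2, fell, with 1.43 and 0.762 CPM in knockout libraries, against 4.30, 5.84 and 2.58 CPM in heterozygous libraries (adjusted p = 0.0426), opposite in sign to Ifngr2 itself.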
